A study of Mus musculus with 63 samples.

Results

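Hox genes encode homeodomain transcription factors that give cells their position along the head-to-tail and limb axes. They lie in 4 clusters (HoxA, HoxB, HoxC and HoxD), and genes of the same number in different clusters are paralogues. In vertebrate embryos genes at the low-numbered end of a cluster are switched on first and reach furthest towards the head, and high-numbered genes follow later and stay towards the tail, the distal limb and the urogenital region. HOX proteins bind DNA together with the TALE homeodomain cofactors (PBX, MEIS and PKNOX), Polycomb complexes keep the clusters silent and Trithorax complexes keep them active. The forebrain and midbrain lack Hox expression, the hindbrain and spinal cord have it, and cultured fibroblasts keep a Hox pattern that reflects the body site they came from. The members described here were the 38 Hox genes matched by symbol among the 24990 gene rows of each RNA-seq table. They comprise 10 genes of HoxA, 10 of HoxB, 9 of HoxC and 9 of HoxD, and no measured value was used to choose them.

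The series examined mice and cells in which Chaserr, a long noncoding RNA gene that lies just upstream of the chromatin remodeller gene Chd2, or Chd2 itself was altered. Whole embryos at E9.5 and E13.5 (days of gestation) and adult brains were sequenced as WT and Chaserr+/-, 3 libraries each. Mouse embryonic fibroblasts (mEFs) came in 4 sets, each with its own 3 WT libraries: Chaserr+/- (3 libraries), Chaserr-/- (3), Chd2m/m (2) and the double mutant Chaserr-/- Chd2m/m (3). Neuro2a, one mouse neuroblastoma cell line, gave RNA immunoprecipitated with a CHD2 antibody or with IgG (RNA immunoprecipitation, RIP) and input RNA, 2 libraries each, and 12 ATAC-seq libraries measured open chromatin in mEFs. The Chaserr allele is a constitutive loss of the promoter and first exon, and mice of both founder lines were used interchangeably. The Chd2m allele is a frameshift from 1 founder, and the double mutant was made by deleting Chaserr on the Chd2m/m background. The mEFs were grown from E13.5 embryos without head and liver, and set, pregnancy or cross and sequencing run cannot be told apart between sets. Within the double-mutant set the RNA labels name a Chaserr+/- Chd2+/m cross for the WT libraries and a Chd2+/m cross for the mutants. In the study double-mutant pups came from intercrosses of Chaserr+/- Chd2+/m mice. The ATAC-seq labels place WT and double-mutant mEFs in the same pregnancy. Whether the RNA libraries of both genotypes came from the same cross is not settled by their labels. Nothing in the labels says that the Neuro2a libraries came from separate cultures, and p-values then measure only the spread between these samples.

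Summed counts ran from 7621335 in a CHD2 RIP library to 33192002 in a WT brain library. The embryo libraries held 21589962 to 31293072 counts, the brain libraries 13956040 to 33192002, the mEF libraries 9672637 to 16983416 and the Neuro2a libraries 7621335 to 20050508. The labelled tissues carried their defining markers. The summed level of 7 neuronal genes in WT brains was 1678 to 2478 FPKM (fragments relative to transcript length and to the mapped fragments of the library), led by Snap25, the summed level of 9 fibroblast genes in WT mEFs was 3884 to 5943 FPKM, led by Vim, and the 11 neuroblastoma genes summed to 789.3 and 810.8 FPKM in the Neuro2a inputs.

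Several libraries stood apart from others of their group. At E9.5, WT replicate 3 and Chaserr+/- replicate 1 carried little of the high-numbered Hox genes: those numbered 9 to 13 made up 18.5, 17.4 and 3.44% of all Hox FPKM in the WT libraries and 1.5, 16.7 and 11.7% in the Chaserr+/- libraries. Cdx2, an activator of caudal Hox genes, was also lowest in those libraries, at 0.75, 0.77 and 0.20 FPKM in WT and 0.27, 0.56 and 0.54 FPKM in Chaserr+/-. Chaserr+/- replicate 3 at E9.5 had little heart RNA, with the atrial myosin light chain gene Myl7 at 15.4 FPKM against 256 to 408 FPKM in the other E9.5 libraries. Among the brains, replicate 3 of both genotypes was prepared with the TruSeq kit and the others with the SENSE kit. The cerebellar Purkinje cell gene Pcp2 ran from 0.12 to 216 FPKM over the 6 brains. IgG RIP replicate 1 held less Hox RNA than replicate 2 (4.89 against 21.8 FPKM summed over the members). Where a result changed without one of these libraries, the value without it is given.

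The altered genes were checked first. Chaserr stood at 16.5, 15.3 and 17.8 CPM (counts relative to the library total) in WT E9.5 embryos and 8.29, 10.8 and 8.19 CPM in Chaserr+/-, at 16.4, 25.4 and 22.2 against 14.2, 11.5 and 16.4 CPM at E13.5, and at 10.6, 12 and 11.2 against 5.48, 8.40 and 4.34 CPM in brains. In mEFs Chaserr was at 9.11, 9.13 and 8.04 CPM in WT and 4.49, 6.66 and 4.92 CPM in Chaserr+/-, at 6.47, 5.21 and 4.03 CPM in the WT of the Chaserr-/- set and at 0 in all 3 Chaserr-/- libraries. It was at 41.8, 38.5 and 34.6 CPM in the WT of the double-mutant set and at 0, 0.0596 and 0.0980 CPM in the double mutants. The Chaserr mutants were thus below the WT libraries of their set, except at E13.5, where the ranges met. In the Chd2m/m set, where Chaserr is intact, it was at 8.45, 9.80 and 8.90 CPM in WT and 8.17 and 6.59 CPM in Chd2m/m. Chd2 was above its WT range in every mutant library: 113.2 to 120.6 against 173.9 to 201.4 CPM at E9.5, 125.1 to 128.9 against 208.6 to 225.0 CPM at E13.5, 34.2 to 46.6 against 58.2 to 105.5 CPM in brains, and, in mEFs, 35.7 to 38.2 against 50.3 to 56.6 CPM in Chaserr+/-, 30.0 to 35.1 against 79.2 to 93.7 CPM in Chaserr-/-, 27.6 to 32.3 against 46.4 and 47.9 CPM in Chd2m/m and 37.8 to 38.4 against 132.8 to 152.9 CPM in the double mutants. In Chd2m/m and the double mutant this is frameshifted Chd2 RNA.

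Between the 2 stages the WT embryos changed their Hox genes in an order that followed the gene number. Genes numbered 1 to 4, the head-end genes, were level or lower at E13.5, genes numbered 5 to 8 were mostly higher, and genes numbered 9 to 13 were higher by the largest factors. Members of the same number were summed over the clusters in FPKM to show this (mean of 3 WT libraries). Number 1 went from 7.34 at E9.5 to 1.78 at E13.5, number 2 from 23.8 to 15.1 and number 4 from 27.9 to 22.6. Numbers 5, 6, 7 and 8 went from 13.9 to 32.8, from 10.2 to 25.1, from 3.58 to 12.9 and from 8.92 to 30.2. Number 3, between the lower numbers 2 and 4, stood at 23.9 and 23.7. At the tail end number 10 went from 1.19 to 27.5, number 11 from 0.347 to 7.70, number 12 from 0 to 4.63 and number 13 from 0.11 to 12.6, while number 9 stood at 18.5 ± 13.1 (SD, n = 3) and 32.1 ± 8.52, a difference within the spread of the E9.5 libraries.

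**Figure D1:**
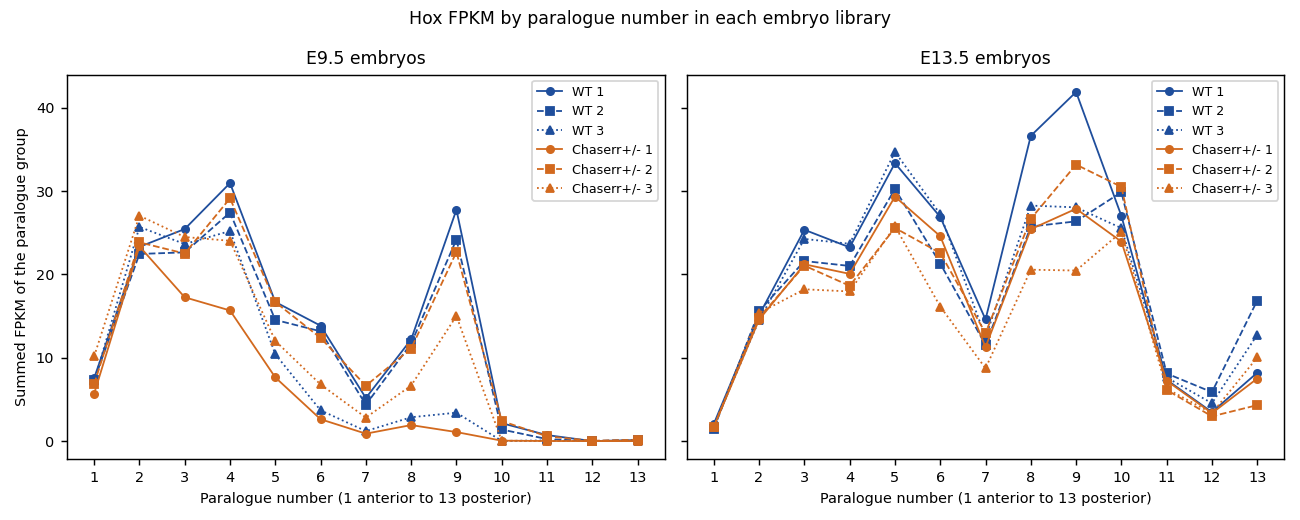
Summed FPKM of the Hox genes of each paralogue number (x axis, 1 to 13) in every WT and Chaserr+/- embryo library at E9.5 and E13.5, one line per library. At E9.5 the lines peak at numbers 2 to 4 and separate from number 5 on, with a further peak at number 9 that WT replicate 3 and Chaserr+/- replicate 1 lack, and at E13.5 numbers 10 to 13, near 0 at E9.5, are filled in.

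Of the 38 members, 37 passed the filter on low counts in this comparison, and 30 were called by edgeR's quasi-likelihood test at a Benjamini-Hochberg adjusted p under 0.05, 23 higher and 7 lower at E13.5. The background was high, since 80.4% of the 15761 genes tested were called, 42.1% higher and 38.3% lower. Among genes numbered 1 to 4, 7 of 11 fell and none rose, with a median log2 fold change of -0.81. Among genes numbered 5 to 8, 10 of 11 rose with a median of 1.26, and among those numbered 9 to 13, 13 of 15 tested rose with a median of 5.30, or of 4.68 with the 4 genes at 0 counts at E9.5 set to the bounds given below for them. Of these, Hoxa13, Hoxc10 to Hoxc13 and Hoxd11 to Hoxd13 had few or no counts at E9.5. They passed the filter only through E13.5, where they are high. Hoxa10, Hoxc9 and Hoxd10 had no count in WT replicate 3 of E9.5, and Hoxa9 and Hoxa11 had 7 and 4. They too passed the filter only with the E13.5 libraries, where they are high. The count and the median of this class are therefore a description. In the class numbered 5 to 8 the same holds for Hoxa6 and Hoxa7, which had 2 and 4 counts in that replicate. Hoxb1, in turn, passed the filter only through E9.5, where it is high. With at least 10 counts required in every library, 8 of 21 members were called higher and 6 lower (11080 of 13869 genes called), and the median over the members was 0.18 in place of 1.26. The median over all genes tested was 0.0566. In 31 of the 37 the 3 libraries of one stage did not overlap those of the other, which held for 82.8% of all genes. In whole embryos fewer cells of a type and less RNA per cell cannot be told apart, and marker genes of neurons (7 of 7 listed genes called higher), macrophages (15 of 15) and skeletal muscle (12 of 14 higher, 1 lower) changed between the same stages. Their part in the Hox changes was not tested.

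Hoxb1, which specifies rhombomere 4 of the hindbrain, fell most. Its level was 6.28, 5.80 and 6.41 FPKM in the WT libraries at E9.5 and 0.13, 0.12 and 0.22 FPKM at E13.5. It had 6, 6 and 11 counts at E13.5 and passed the filter only through E9.5. Its fitted log2 fold change of -5.61 is therefore a description only. Hoxb2, another hindbrain gene and a target of Hoxb1, stood at 13.4 ± 0.99 FPKM (SD, n = 3) at E9.5. It fell, with a log2 fold change of -1.16 ± 0.09 (SE, adjusted p = 1.48e-06, edgeR's quasi-likelihood test). Hoxd4, Hoxd3, Hoxa2, Hoxb4 and Hoxa4 also fell, by log2 fold changes of -0.52 to -1.09. Hoxa3 (-0.14, adjusted p = 0.278), Hoxb3 (-0.03, adjusted p = 0.788), Hoxc4 and Hoxd1 did not pass the test.

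The genes that rose most were those of the tail end, which pattern the distal limb, the tail and the urogenital tract. Several were at or near 0 at E9.5, so that their change can be given only from the summed counts. Hoxd12 had no count in the 3 WT libraries at E9.5 and 656 at E13.5, at least 225-fold higher relative to the library totals when the floor is set at 3 counts over the group. On the same floor Hoxa13 was at least 61.7-fold higher (180 counts at E13.5), Hoxc11 at least 25.7-fold (75 counts) and Hoxc12 at least 18.8-fold (55 counts). Hoxc10 had 2 counts at E9.5 and 1099 at E13.5, a ratio of 565 (95% exact interval 156 to 4670), and Hoxc13 had 3 and 161, a ratio of 55.2 (18.5 to 270). These intervals and floors cover counting error only. Hoxb13, the last gene of HoxB, did not pass the filter, with 1 count at E9.5 and 30 at E13.5, a ratio of 30.8 (5.13 to 1260).

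Other members had counts at both stages. Hoxd13, the gene of the digits and genital tubercle, had 6, 8 and 1 counts in the E9.5 WT libraries. At E13.5 it was at 5.54, 12.82 and 9.58 FPKM. Hoxd11, a gene of the forearm and lower leg, had 3.01, 2.0 and 1.11 counts at E9.5. Both passed the filter only through E13.5, so their fitted log2 fold changes of 6.47 and 6.40 are descriptions only. Hoxa10, a gene of the upper leg and the lumbar axis, had 28, 17 and 0 counts at E9.5. It too passed the filter only with the E13.5 libraries, so its fitted log2 fold change of 5.28 is a description only. In the trunk class the changes were smaller. Hoxa5, a gene of the lower neck and lung, rose by 1.09 ± 0.16 (SE) to 15.26, 14.09 and 15.74 FPKM, the highest HoxA level at E13.5. Hoxa7, Hoxb7, Hoxb8, Hoxc8 and Hoxd8 rose by 1.26 to 1.99, the value of Hoxa7 being a description only. Hoxb9 (log2 fold change 0.09, adjusted p = 0.889) and Hoxd9 (0.05, adjusted p = 0.939) did not pass edgeR's quasi-likelihood test. For Hoxd9 a single library decided. Hoxb9 was at 21.05, 17.03 and 2.98 FPKM in the E9.5 WT libraries and at 26.55, 13.18 and 15.32 FPKM at E13.5. Hoxd9 was at 3.72, 3.63 and 0.34 FPKM at E9.5. Without WT replicate 3 of E9.5, 33 of 38 members were called (12479 of 16059 genes), and their median was 0.92. The additions were Hoxc6 and Hoxb13, called higher, and Hoxd9, called lower with a log2 fold change of -0.50 (adjusted p = 0.00433, edgeR's quasi-likelihood test) in place of 0.05. With library size alone as the scaling, the median over all genes moved to 0.389 and 32 members were called.

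In HoxA, HoxC and HoxD the highest member had a higher number at E13.5 than at E9.5, and in HoxB it was the same gene. In HoxA it was Hoxa2 at E9.5 (10.4 ± 0.99 FPKM, SD, n = 3) and Hoxa5 at E13.5 (15.0 ± 0.85). In HoxB it was Hoxb9 (13.7 ± 9.49 and 18.4 ± 7.18 FPKM), indistinguishable at E9.5 from Hoxb2 (13.4 ± 0.99). In HoxC it was Hoxc4 (5.47 ± 1.3 FPKM) and then Hoxc6 (9.90 ± 0.90), which lay within the spread of Hoxc5 (9.72 ± 0.46). In HoxD it was Hoxd3 (9.5 ± 1.03 FPKM), close to Hoxd4 (9.33 ± 1.07), and then Hoxd8 (9.58 ± 0.18), close to Hoxd13 (9.31 ± 3.65). In all, 24 of 38 members had a mean of at least 1 FPKM in WT embryos at E9.5 and 35 at E13.5, where 48.7% and 55.5% of all gene rows did.

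The promoters of 4 genes with unlike stage changes are shown, chosen after their values were seen. Each run holds 250 bases before and 50 after the RefSeq start (GRCm38.p6), 5′ to 3′ on the gene's strand, and capitals mark a match to TGATNNAT on either strand, the composite site that PBX and HOX proteins are known to bind together. Hoxb1 (chr11:96365508-96365807, plus strand), which fell most, and Hoxa2 (chr6:52164782-52165081, minus strand), a hindbrain gene that also fell, each hold 1 match. The inner of 2 Hoxd11 starts (chr2:74682073-74682372, plus strand), a gene that rose, holds 1 as well, and Hoxa5 (chr6:52204538-52204837, minus strand), which rose to the highest HoxA level, holds none. The other Hoxd11 start and the promoters of Hoxd12 and Hoxd13, which rose by more than Hoxa5, hold none either and are not printed.
Hoxb1: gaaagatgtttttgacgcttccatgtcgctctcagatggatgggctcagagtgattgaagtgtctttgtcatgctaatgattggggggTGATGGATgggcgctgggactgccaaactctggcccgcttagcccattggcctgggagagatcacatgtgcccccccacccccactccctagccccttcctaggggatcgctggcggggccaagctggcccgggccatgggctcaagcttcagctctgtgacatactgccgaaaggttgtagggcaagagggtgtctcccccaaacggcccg
Hoxa2: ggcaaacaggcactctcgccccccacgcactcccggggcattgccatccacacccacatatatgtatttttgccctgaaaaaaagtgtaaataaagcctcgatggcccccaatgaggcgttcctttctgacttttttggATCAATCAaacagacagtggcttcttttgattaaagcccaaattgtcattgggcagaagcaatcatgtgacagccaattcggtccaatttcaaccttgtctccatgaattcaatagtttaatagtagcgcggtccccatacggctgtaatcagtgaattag
Hoxd11: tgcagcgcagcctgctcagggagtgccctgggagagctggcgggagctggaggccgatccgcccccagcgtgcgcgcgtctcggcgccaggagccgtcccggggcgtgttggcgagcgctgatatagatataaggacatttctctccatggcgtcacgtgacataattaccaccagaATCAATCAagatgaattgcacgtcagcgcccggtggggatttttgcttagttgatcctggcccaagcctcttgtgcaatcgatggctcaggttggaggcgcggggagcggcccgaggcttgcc
Hoxa5: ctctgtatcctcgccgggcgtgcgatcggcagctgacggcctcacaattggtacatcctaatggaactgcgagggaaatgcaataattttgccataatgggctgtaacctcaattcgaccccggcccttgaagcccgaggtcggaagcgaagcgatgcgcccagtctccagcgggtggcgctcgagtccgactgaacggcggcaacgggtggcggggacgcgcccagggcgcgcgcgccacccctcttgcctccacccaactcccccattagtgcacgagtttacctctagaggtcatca
RefSeq promoters were matched for 22 of the 38 members (24 starts). The motif was in 4 of these 24 (16.7%), the fourth being Hoxb8, and in 2906 of all 32841 promoters (8.85%). TATAAA, the core of the TATA box, searched on both strands and overlapping no TGATNNAT match, was in 4 of 24 Hox promoters and in 13.6% of all. The Hox promoters held a median of 14.5 CG pairs against 7 over all promoters, with 10 in Hoxb1, 9 in Hoxa2, 25 in Hoxd11 and 29 in Hoxa5. These matches describe the letters of the windows only.

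Chaserr+/- embryos were then compared with WT embryos at each stage. At E9.5, 29 members passed the low-count filter, and those that did not were Hoxa13, Hoxb13, Hoxd11, Hoxd12, Hoxd13 and Hoxc10 to Hoxc13. None of the 29 was called by edgeR's quasi-likelihood test (0% of all 14500 genes tested), 1 had an unadjusted p under 0.05 (3.12% of all genes), and DESeq2 called none of 35. That member was Hoxa4, a gene of the cervical axis, at 5.86, 5.81 and 6.22 FPKM in WT and 3.36, 4.99 and 3.88 FPKM in Chaserr+/-, a log2 fold change of -0.54 ± 0.15 (SE; adjusted p = 1.00). It was the only member whose groups did not overlap with Chaserr+/- lower, where 4.28% of all genes were so, and none was wholly higher (5.34%). Next by p were Hoxb4 (-0.25 ± 0.17, adjusted p = 1.00), at 8.35, 6.73 and 6.20 FPKM in WT and 4.70, 7.11 and 5.98 FPKM in Chaserr+/-, and Hoxb6 (-0.59 ± 0.41, adjusted p = 1.00), at 6.34, 5.82 and 2.67 against 1.81, 4.68 and 3.34 FPKM.

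The direction at E9.5 depended on which libraries were included. Of the 29 members, 25 had a negative log2 fold change, with a median of -0.22 against a median of -0.000222 over all genes. Without Chaserr+/- replicate 1 it was 14 of 29 with a median of 0.02, without WT replicate 1 it was 18 of 29 with a median of -0.06, without WT replicate 3 it was 26 of 29 with a median of -0.51, without Chaserr+/- replicate 2 it was 26 of 29 with a median of -0.72, and without Chaserr+/- replicate 3, the library with little heart RNA, it was 25 of 29 with a median of -0.28. Without both libraries that stood apart in Hox genes (WT replicate 3 and Chaserr+/- replicate 1) it was 21 of 29 with a median of -0.196, and none was called. Genes numbered 1 to 4 summed to 87.3, 79.8 and 81.7 FPKM in WT and 62.0, 82.3 and 85.7 FPKM in Chaserr+/-. Those numbered 5 to 8 summed to 47.9, 43.8 and 18.2 FPKM in WT and 13.1, 46.8 and 28.3 FPKM in Chaserr+/-. Those numbered 9 to 13 summed to 30.7, 26.0 and 3.56 FPKM in WT and 1.14, 25.9 and 15.1 FPKM in Chaserr+/-. The spread therefore grew towards the tail end within both genotypes, and Cdx2 moved with it as given above. All 9 fibroblast genes tested were negative (median -0.45), 5 of them with an unadjusted p under 0.05 and none called, and they summed to 638, 569.9 and 529 FPKM in WT and 542, 497 and 405 FPKM in Chaserr+/-, led by Vim with none at 0. The part of these in the Hox direction was not tested.

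At E13.5 most Hox genes lay slightly lower in Chaserr+/- embryos, and none passed the test. Of 37 members tested (all but Hoxb1), none was called by edgeR's quasi-likelihood test (0.0314% of 15946 genes), 6 had an unadjusted p under 0.05, all lower (6.34% of all genes had such a p and 3.25% were lower at it), and DESeq2 called none of 38 and had 5 at that p. That count of 6 was 1 without WT replicate 3, 11 without Chaserr+/- replicate 1 and 11 with library size alone as the scaling. Hoxd8, a trunk gene, was at 9.37, 9.71 and 9.65 FPKM in WT and 7.36, 7.51 and 8.59 FPKM in Chaserr+/-, a log2 fold change of -0.27 ± 0.07 (SE; adjusted p = 0.732). Hoxc5, of the cervical and upper thoracic axis, was at 9.38, 9.53 and 10.24 FPKM in WT and 7.97, 6.14 and 7.92 FPKM in Chaserr+/- (-0.37 ± 0.12, adjusted p = 0.732). Hoxd12, of the distal limb, was at 2.71, 4.36 and 3.68 FPKM in WT and 2.36, 1.72 and 2.58 FPKM in Chaserr+/- (-0.66 ± 0.22, adjusted p = 0.732). In each of them the Chaserr+/- libraries lay wholly below WT. The other 3 were Hoxd3, Hoxd4 and Hoxa13.

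The lower values at E13.5 ran through all 4 clusters. The groups did not overlap, with Chaserr+/- lower, in 8 of 37 members (7.07% of all genes) and with Chaserr+/- higher in none (5.74%). Of the 37, 32 had a negative log2 fold change, with a median of -0.20 where all genes had 0.00356. All 11 genes numbered 5 to 8 were negative (median -0.234). The summed FPKM of the members was 235.6 to 265.1 in WT and 189.7 to 221.0 in Chaserr+/-, that of HoxA 69.1 to 71.6 against 60.2 to 65.8, and that of HoxD 43.9 to 51.9 against 35.4 to 38.5, none of which overlapped. HoxB overlapped (67.3 to 98.5 against 50.5 to 79.2 FPKM), as did the share of genes numbered 9 to 13 (32.0 to 37.0% against 32.1 to 34.9%). The members share libraries and cells, so their common direction is 1 observation in 6 embryos. Leaving out 1 library at a time kept 27 to 34 members negative, and without Chaserr+/- replicate 3 the split was 27 negative and 10 positive with a median of -0.08. Of 13 limb and axial position genes 8 were negative and 5 positive, 5 had an unadjusted p under 0.05 and none was called. All 4 spinal motor neuron genes had such a p, 3 of them negative and 1, Isl1 (0.19), positive, and none was called. Lower values that did not pass the test included those of the limb genes Tbx4 (-0.38, adjusted p = 0.732) and Tbx5 (-0.37, adjusted p = 0.732), the retinoic acid synthesis gene Aldh1a2 (-0.33, adjusted p = 0.732) and the motor neuron gene Mnx1 (-1.57, adjusted p = 0.732). Erythroid RNA differed between libraries (48.7, 103.8 and 34.0 FPKM summed over 4 genes in WT, 335.2, 34.4 and 49.4 FPKM in Chaserr+/-), led by Alas2 and with replicate 1 of Chaserr+/- highest. The part of these in the result was not tested.

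Adult brains had almost no Hox RNA. In WT no member reached 1 FPKM, 26 to 32 of the 38 were listed at 0 per library, and the members summed to 0.28, 0.48 and 0.46 FPKM. The highest WT means were 0.08 ± 0.07 FPKM (SD, n = 3) for Hoxb5, 0.063 ± 0.032 FPKM for Hoxb2, 0.053 ± 0.023 FPKM for Hoxd1, 0.040 ± 0.017 FPKM for Hoxa4, 0.037 ± 0.035 FPKM for Hoxa5 and 0.033 ± 0.042 FPKM for Hoxc4, which did not differ beyond their spread. Chaserr+/- brains 1 and 2 held more, with sums of 10.7 and 9.97 FPKM, and Chaserr+/- brain 3 held 0.07 FPKM. Hoxa5 was at 0, 0.04 and 0.07 FPKM in WT and 2.43, 1.92 and 0 FPKM in Chaserr+/-. Hoxb5 was at 0, 0.12 and 0.12 FPKM in WT and 2.29, 2.40 and 0 FPKM in Chaserr+/-. The genotypes thus overlapped. Hoxa4 was at 0.05, 0.05 and 0.02 FPKM in WT and 0.80, 1.22 and 0 FPKM in Chaserr+/-. Hoxc4 was at 0, 0.08 and 0.02 FPKM in WT and 1.00, 1.00 and 0 FPKM in Chaserr+/-. The trunk genes Hoxb6 and Hoxb8 were lower, at 0.44 and 0.46 and at 0.50 and 0.11 FPKM in Chaserr+/- brains 1 and 2. Genes numbered 9 to 13 were at 0 in WT and summed to at most 0.03 FPKM in Chaserr+/-.

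Some markers of the brainstem and spinal cord were also highest in these libraries. The summed list given below was too, but only through Slc6a5 and by a small margin over WT brain 2. Slc6a5, the glycine transporter of brainstem and spinal inhibitory neurons, was at 0.33, 0.95 and 0.38 FPKM in WT and 5.38, 3.60 and 0.00 FPKM in Chaserr+/-, and the glycine receptor gene Glra1 was at 2.61, 3.05 and 0.76 against 6.44, 4.48 and 0.24 FPKM. Pcp2, the cerebellar marker, was at 0.41, 216 and 39.5 FPKM in WT and 105, 104 and 0.12 FPKM in Chaserr+/-. The brain with the least Hox RNA also had the least Slc6a5, Glra1 and Pcp2, whereas the most Pcp2 was in WT brain 2, which had almost no Hox RNA. The 10 listed brainstem and hindbrain genes together summed to 12.9, 14.3 and 4.05 FPKM in WT and 15.9, 14.8 and 3.06 FPKM in Chaserr+/-, led by Tph2, Tph2 and Chat and by Slc6a5, Slc6a5 and Chat. Slc6a5 is on this list and Glra1 is not. The other listed genes together were lower in Chaserr+/- brains 1 and 2 than in WT brains 1 and 2. The part of the brain region in each library in these values was not tested, and replicate 3 was also the TruSeq library.

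No Hox gene passed the low-count filter in brains, so none was tested, and 0% of 14911 genes tested were called. Without the filter 18 members could be fitted and none was called by edgeR's quasi-likelihood test, 11 having an unadjusted p under 0.05, as had 475 of 19810 genes in that fit and 2.47% of the genes that passed the filter. DESeq2 called none of 18, 10 of them at that p (528 of 19810 genes). Hoxa5 then had a log2 fold change of 5.03 ± 1.63 (SE; adjusted p = 1.00, edgeR without the filter). Within the SENSE libraries (2 against 2), 8 members passed the filter and none was called. They passed only through the Chaserr+/- libraries, in which they were high. Hoxa5 had 0 and 1 counts in these WT brains and 64 and 49 in Chaserr+/-, and Hoxb5 had 0 and 3 against 61 and 62. The TruSeq pair held 1 brain of each genotype, so no test within it was possible.

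**Figure D2:**
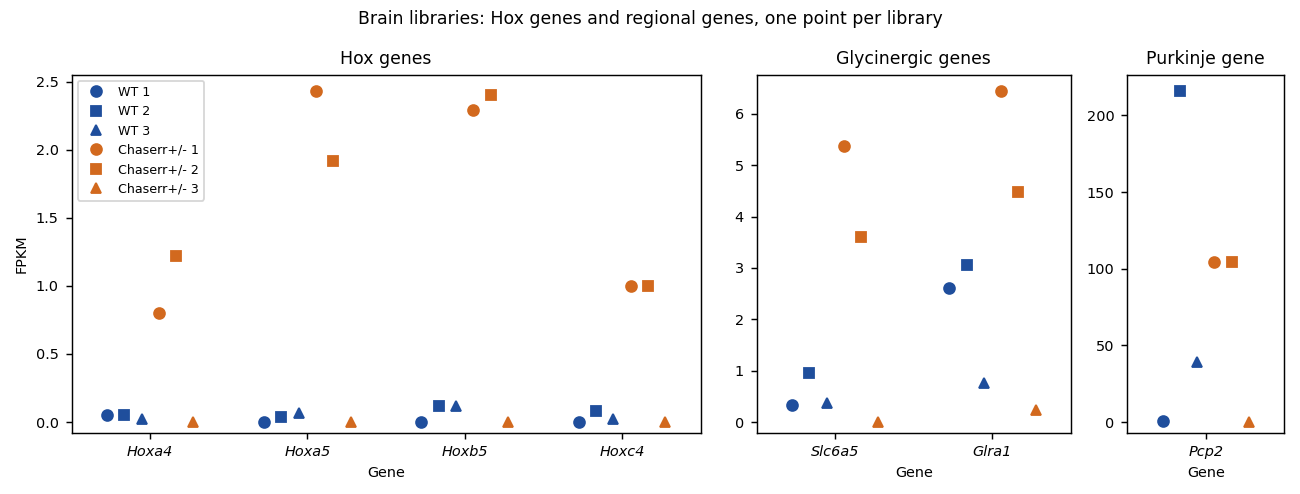
FPKM of 4 Hox genes (Hoxa4, Hoxa5, Hoxb5, Hoxc4), of the brainstem and spinal cord genes Slc6a5 and Glra1 and of the cerebellar gene Pcp2 in each of 3 WT and 3 Chaserr+/- brains, one point per library. The Hox genes stand near 0 in all brains but Chaserr+/- 1 and 2, which also have the highest Slc6a5.

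The mEFs expressed nearly the whole family. In the 4 WT sets 33, 36, 33 and 34 members had a mean of at least 1 FPKM (Chaserr+/-, Chaserr-/-, Chd2m/m and double-mutant set). WT embryos had 24 at E9.5 and 35 at E13.5, the stage from which the mEFs were grown. Hoxb1 was the gene most clearly missing, at 0 to 0.03 FPKM in the WT libraries of 3 sets and 0.18 to 0.22 FPKM in the double-mutant set. The leading gene of HoxA, HoxB and HoxC was the same in the 4 sets, and the second gene of HoxA and HoxB was not. Hoxa5 led HoxA at 31.3 ± 2.64, 18.9 ± 2.66, 32.4 ± 3.51 and 32.7 ± 6.49 FPKM (SD, n = 3 per set). Hoxb9 led HoxB at 29.0 ± 1.00, 25.2 ± 1.40, 41.6 ± 1.01 and 26.9 ± 7.05 FPKM, and Hoxc6 led HoxC at 33.2 ± 1.07, 25.4 ± 1.85, 37.2 ± 1.35 and 32.5 ± 5.15 FPKM. HoxD had the lowest leading gene in each set. It was Hoxd8 in the Chaserr+/- and Chaserr-/- sets (8.79 ± 0.30 and 12.7 ± 3.69 FPKM) and Hoxd13 in the Chd2m/m and double-mutant sets (8.32 ± 1.64 and 19.5 ± 0.76 FPKM). The next gene lay within the spread in the Chaserr-/- set (Hoxd13, 10.2 ± 3.77 FPKM) and in the Chd2m/m set (Hoxd8, 7.9 ± 1.55 FPKM).

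**Figure D3:**
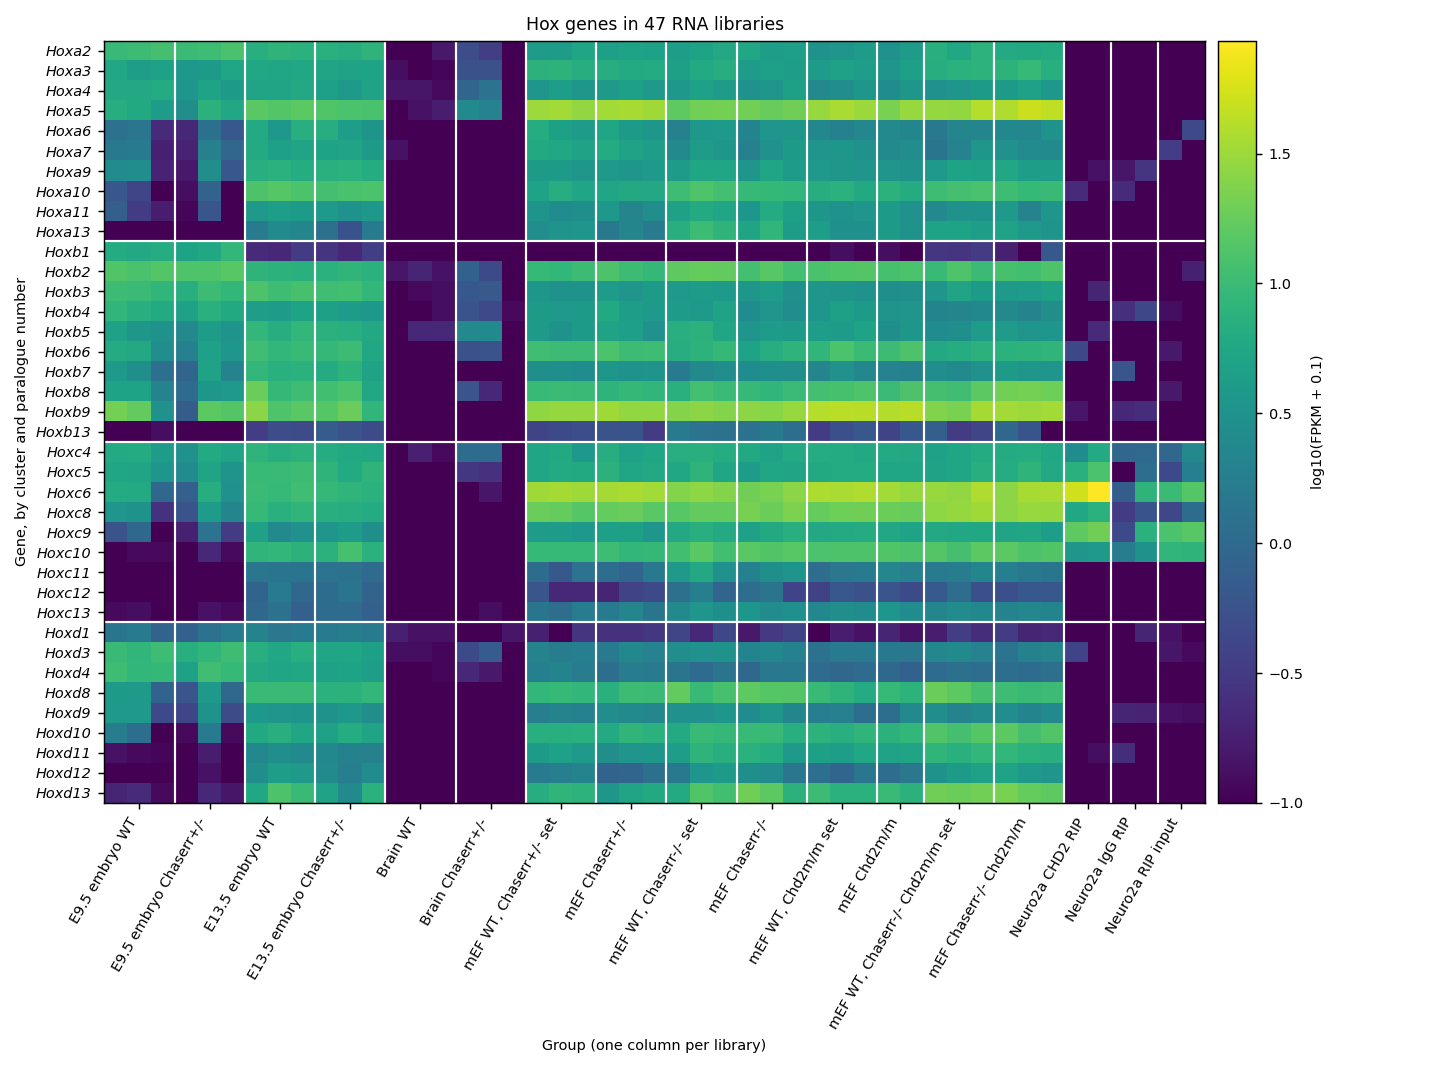
Level of each of the 38 Hox genes (rows, in cluster order) in each of the 47 RNA libraries (columns, by group), as log10 of FPKM plus 0.1. Embryos and mEFs fill most rows, E9.5 embryos lack the highest numbers, brains are almost empty and Neuro2a shows Hoxc4 to Hoxc10 only.

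The WT sets differed from each other about as much in Hox genes as in other genes. Of 36 members tested, 30 differed among the 4 WT sets by edgeR's quasi-likelihood F-test at an adjusted p under 0.05, where 88.1% of 14437 genes did, and 16 of 38 by DESeq2's likelihood ratio test, where 9618 of 19631 genes did. The median ratio of the highest to the lowest set was 1.84 for the Hox genes and 1.90 for all genes. The 4 largest ratios were at the tail end, 4.74 for Hoxc12, 4.24 for Hoxc11, 3.45 for Hoxb13 and 3.33 for Hoxd12. Then came the mid-cluster gene Hoxa6 (2.68), Hoxa13 and Hoxa7 (2.55 each) and Hoxd13 (2.45). The ratios of Hoxc12, Hoxc11 and Hoxb13 rest on few counts in their lowest set, the WT of Chaserr+/-. There Hoxc12 had 5, 1 and 1 counts, Hoxc11 had 11, 5 and 12, and Hoxb13 had 5, 5 and 6. Hoxd13 was at 6.67 to 8.30 FPKM in the Chaserr+/- set, 6.08 to 13.46 in the Chaserr-/- set, 7.33 to 10.22 in the Chd2m/m set and 18.66 to 20.12 FPKM in the double-mutant set, which did not overlap the others. Hoxc11 was highest in the Chaserr-/- set, at 2.91 to 5.73 FPKM against 0.54 to 2.13 FPKM in the others. That set also had the most Tbx4, a hindlimb gene (10.5 to 14.1 FPKM against 4.12 to 6.37). The share of genes numbered 9 to 13 was 31.0 to 33.5% in the Chaserr+/- set, 38.9 to 43.9% in the Chaserr-/- set, 36.3 to 38.7% in the Chd2m/m set and 38.5 to 40.2% in the double-mutant set.

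Other cells differed between the same sets. The 15 macrophage genes, led in most libraries by Fcer1g and none at 0, summed to 181 to 233, 797 to 982, 366 to 522 and 494 to 557 FPKM in the WT libraries of the 4 sets in that order. The 14 skeletal muscle genes, led by Actc1, summed to 220 to 238, 702 to 1229, 354 to 596 and 363 to 457 FPKM. The Chaserr+/- set was lowest and the Chaserr-/- set highest in both. Their part in the Hox differences was not tested.

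In Chaserr+/- mEFs the members lowest against WT were the last genes of HoxD and HoxA, without passing the test. Of 34 members tested (all but Hoxb1, Hoxb13, Hoxc12 and Hoxd1), none was called by edgeR's quasi-likelihood test (0.173% of 13282 genes), 5 had an unadjusted p under 0.05 (8.36% of all genes), and DESeq2 called none of 37, with 4 at that p. Hoxd12 was at 1.46, 1.69 and 1.99 FPKM in WT and 0.76, 0.80 and 1.11 FPKM in Chaserr+/-, a log2 fold change of -0.95 ± 0.23 (SE; adjusted p = 0.192). Hoxd13 was at 6.67, 8.30 and 7.87 FPKM in WT and 3.44, 5.02 and 5.89 FPKM in Chaserr+/- (-0.67 ± 0.17, adjusted p = 0.215). Hoxa13 was at 2.62, 3.16 and 3.40 FPKM in WT and 1.42, 2.05 and 1.53 FPKM in Chaserr+/- (-0.86 ± 0.23, adjusted p = 0.244). These 3 genes had no overlap between the groups, and 5 members in all were wholly lower (6.85% of all genes), and 2 members were higher without overlap (7.65%). Over the 34 members 22 were positive and 12 negative, with a median of 0.07. Skeletal muscle RNA was higher in these Chaserr+/- libraries, at 453, 339 and 298 FPKM against 220 to 238 FPKM in WT, and 12 of the 14 listed genes had an unadjusted p under 0.05, 1 of them called higher. Chondrocyte genes, led by Col2a1, summed to 162, 118 and 129 FPKM against 99.5 to 112 FPKM in WT, with 6 of 10 tested at that p and none called. Their part in the Hox values was not tested.

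In Chaserr-/- mEFs Hoxb5 came closest to a call. Of 35 members tested (all but Hoxb1, Hoxc12 and Hoxd1), none was called by edgeR's quasi-likelihood test (0.118% of 13580 genes), 7 had an unadjusted p under 0.05 where 33.9% of all genes did, and DESeq2 called 1 of 37 (2590 of 18671 genes), with 6 at that p. Hoxb5 was at 6.82, 7.50 and 5.14 FPKM in WT and 3.33, 4.13 and 3.92 FPKM in Chaserr-/-, a log2 fold change of -0.81 ± 0.21 (SE; adjusted p = 0.053 with edgeR, 0.0196 with DESeq2). Hoxb5, which acts in neural crest and the upper trunk, is a paralogue of Hoxa5 (0.01) and Hoxc5 (-0.39), which did not pass the test. Hoxa10 was at 10.33, 13.11 and 11.38 FPKM in WT and 9.15, 8.83 and 8.56 FPKM in Chaserr-/- (-0.45 ± 0.15, adjusted p = 0.0729). Hoxb2 was at 16.16, 17.28 and 16.92 FPKM in WT and 11.35, 14.65 and 11.44 FPKM in Chaserr-/- (-0.46 ± 0.15, adjusted p = 0.0748).

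All 3 lay wholly below WT in Chaserr-/-, as did 7 members in all (21.4% of all genes), and 1 was wholly above (21.8%). Of the 35 members 25 were negative, with a median of -0.19 against -0.022 over all genes, and genes numbered 1 to 4 were the lowest class (1 of 9 positive, median -0.31). Leaving out 1 library at a time kept 24 to 28 negative. The median then ran from -0.106 (without WT replicate 5) to -0.285 (without WT replicate 4). Without Chaserr-/- replicate 2, Hoxb5, Hoxb2 and Hoxa13 were called (adjusted p = 0.0361, 0.0352 and 0.0401, edgeR's quasi-likelihood test), but 2827 of 13770 genes were called in that fit, a larger share than 3 of 35. Hoxb5os, a noncoding RNA antisense to the Hoxb5 region, was at 4.29, 5.67 and 5.56 FPKM in WT and 1.14, 0.78 and 1.82 FPKM in Chaserr-/- (-2.10 ± 0.40, adjusted p = 0.0522). The libraries were strand-specific, but whether the counting used strand is not given in the sources used here, and reads of this pair may not be told apart. Macrophage genes summed to 594, 624 and 645 FPKM in Chaserr-/- against 797 to 982 FPKM in WT (2 of 15 called lower) and skeletal muscle genes to 519, 515 and 472 against 702 to 1229 FPKM (1 of 14 called lower), 10 of 11 chondrocyte genes were negative (median -0.62, none called), and their part in the Hox values was not tested.

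In Chd2m/m mEFs, which carry the Chd2 frameshift with Chaserr intact, the members were split evenly. Of 34 tested (all but Hoxb1, Hoxb13, Hoxc12 and Hoxd1), none was called by edgeR's quasi-likelihood test (0.0145% of 13777 genes), 3 had an unadjusted p under 0.05 (4.51% of all genes), and DESeq2 called none of 38, with 3 at that p. Hoxb5 again had the lowest p, at 4.34, 4.05 and 4.90 FPKM in WT and 2.83 and 3.43 FPKM in Chd2m/m (-0.49 ± 0.16, SE, adjusted p = 0.937). Hoxc6, a thoracic and forelimb-level gene, was at 37.25, 35.88 and 38.57 FPKM in WT and 33.52 and 29.87 FPKM in Chd2m/m (-0.22 ± 0.07, adjusted p = 0.937). Hoxa5 was at 29.98, 36.43 and 30.80 FPKM in WT and 21.83 and 30.18 FPKM in Chd2m/m (-0.31 ± 0.13, adjusted p = 0.937), where 1 of the mutant libraries lay inside the WT range. With 1 library left out, the change of Hoxa5 ranged from -0.558 to -0.097. The direction was 17 positive and 17 negative with a median of -0.01, 9 members were wholly lower (10.4% of all genes) and 1 wholly higher (10.3%). Genes numbered 9 to 13 were positive in 11 and negative in 3 cases, and genes numbered 5 to 8 in 3 and 8. Chondrocyte genes were negative in 10 of 11 cases (median -0.81, none called), with sums of 35.4 and 38.1 FPKM against 29.8 to 64.2 FPKM in WT, and skeletal muscle genes were positive in 13 of 14 (median 0.27, none called). Their part in the Hox values was not tested.

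In the double mutants no member passed edgeR's test, and the lowest p values were those of Hoxb8 and Hoxd8, with values on opposite sides of WT. Of the 34 members tested, which left out the same 4 genes, none was called by edgeR's quasi-likelihood test (0.0924% of 14076 genes), 3 had an unadjusted p under 0.05 (9.89% of all genes), and DESeq2 called 1 of 38 (220 of 19227 genes), with 3 at that p. Hoxb8, a gene of the thoracic axis, was at 11.49, 10.60 and 15.42 FPKM in WT and 20.43, 20.69 and 19.05 FPKM in the double mutants, a log2 fold change of 0.68 ± 0.15 (SE; adjusted p = 0.110 with edgeR, 0.00239 with DESeq2). Its paralogue Hoxd8 was at 18.60, 15.68 and 11.77 FPKM in WT and 10.58, 9.60 and 10.11 FPKM in the double mutants (-0.60 ± 0.17, adjusted p = 0.234). Hoxa5 was at 29.57, 28.38 and 40.17 FPKM in WT and 37.83, 50.41 and 44.48 FPKM in the double mutants (0.44 ± 0.15, adjusted p = 0.354), and its groups overlapped. WT replicate 3 lay nearest the mutants in all 3 genes. Without it Hoxb8 (adjusted p = 0.0131) and Hoxb9 (0.0452) were called higher and Hoxd8 (0.0337) lower, 3 of 35 members where 201 of 14222 genes were called. In all, 3 members were wholly higher (6.44% of all genes) and 3 wholly lower (7.4%), and 22 were positive and 12 negative (median 0.05). Skeletal muscle genes summed to 644, 634 and 508 FPKM against 363 to 457 FPKM in WT and macrophage genes to 467, 330 and 318 against 494 to 557 FPKM (1 of 15 called lower). Of 9 fibroblast genes 7 were negative (median -0.47) and 7 had an unadjusted p under 0.05, none being called, with sums of 4001, 4162 and 3959 FPKM against 3884 to 4841 FPKM in WT, led by Vim. The part of these lists in the Hox values was not tested.

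**Figure D4:**
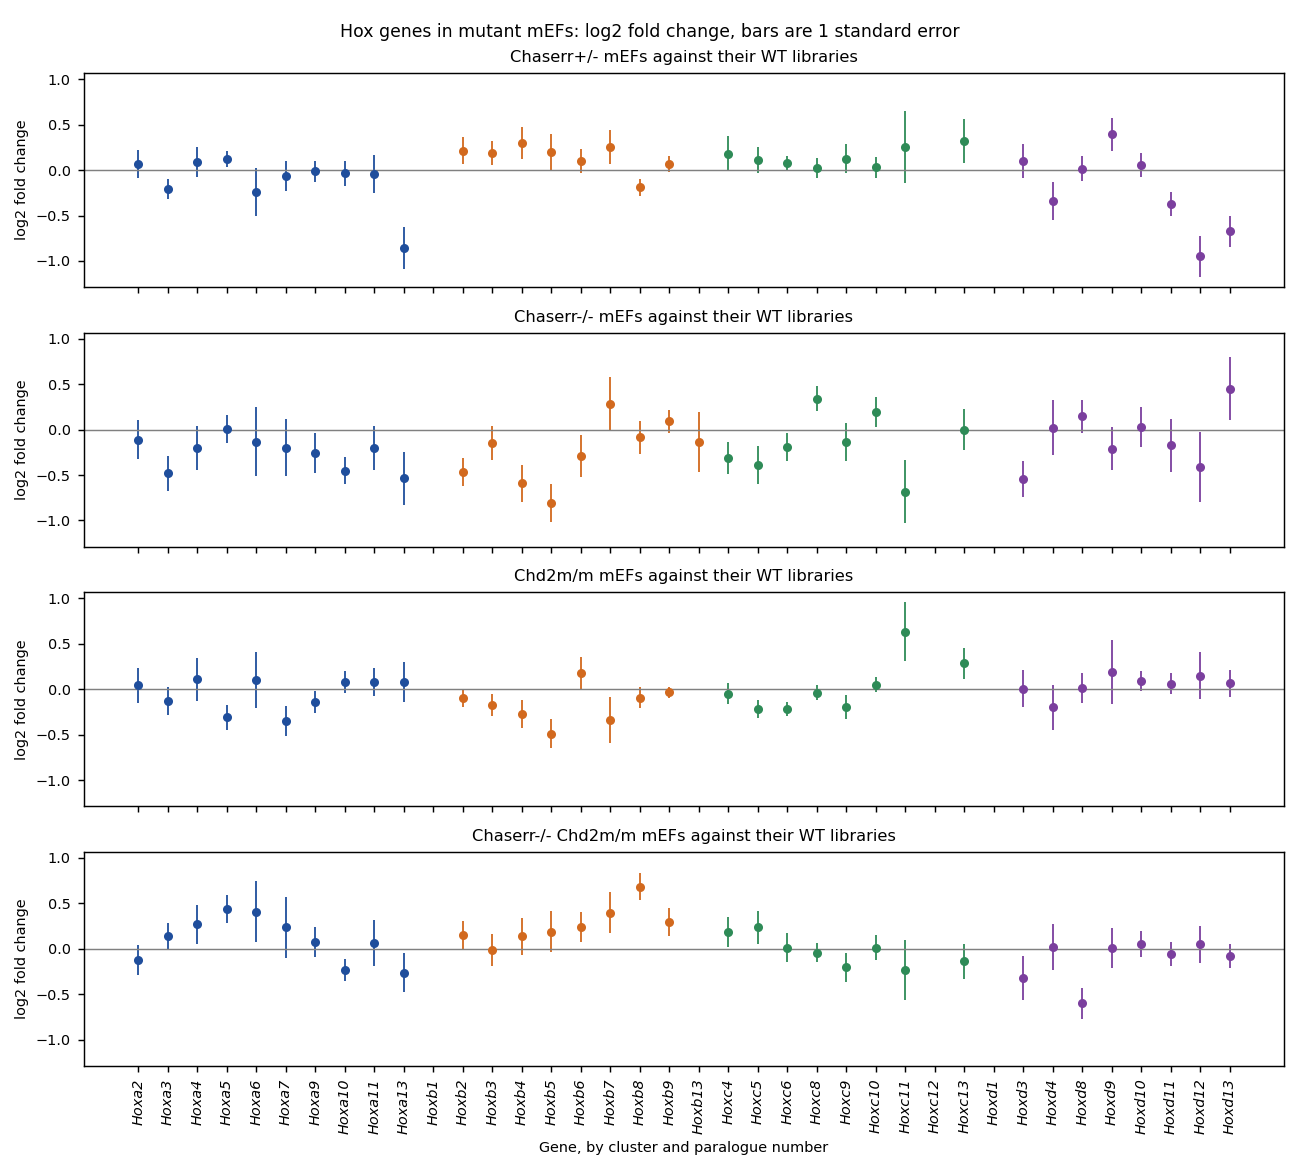
Log2 fold change against the set's own WT, with bars of 1 standard error, for each Hox gene that passed the low-count filter in Chaserr+/-, Chaserr-/-, Chd2m/m and Chaserr-/- Chd2m/m mEFs. Most points lie between -0.5 and 0.5, Hoxd12, Hoxd13 and Hoxa13 are lowest in Chaserr+/-, Hoxb5 is lowest in Chaserr-/- and Hoxb8 is highest in the double mutants.

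Hoxb5, the member nearest to a call in Chaserr-/- mEFs, lay on both sides of 0 through the mEF sets. It had log2 fold changes of 0.20, -0.81, -0.49 and 0.18 in Chaserr+/-, Chaserr-/-, Chd2m/m and double-mutant mEFs, each against WT libraries of its own. Hoxc10 was positive in all 4 by small amounts (0.03, 0.19, 0.05 and 0.01) and did not pass the test in any. The difference between the double-mutant and the Chaserr-/- effect was tested directly in one edgeR model over both sets: it was 0.99 ± 0.30 (SE) for Hoxb5 (adjusted p = 0.0872) and 0.77 ± 0.24 for Hoxb8 (adjusted p = 0.0907), and none of 35 members passed, where 0.112% of 14273 genes did. The study asked of genes that start close downstream of another gene on the same strand, an arrangement common in Hox clusters. It reported stronger lowering in Chaserr-/- mEFs where the upstream gene was more highly expressed. 5 members start within 2 kb of the end of an upstream gene on the same strand (mm9, GENCODE vM1): Hoxa5, 844 bases from Hoxa6, Hoxb5, 1026 bases from Hoxb6, Hoxc5, 1934 bases from Hoxc6, Hoxd9, 305 bases from Gm14396, and Hoxb7, whose start overlaps Hoxb8. Their log2 fold changes in Chaserr-/- mEFs were 0.01, -0.81, -0.39, -0.21 and 0.29, on both sides of 0 and, Hoxb5 apart, inside the range of the other members. In the double mutants they were 0.44, 0.18, 0.24, 0.01 and 0.40. In the WT libraries of the Chaserr-/- set the upstream gene Hoxa6 was at 1.87 to 3.81 FPKM and Hoxb6 at 6.61 to 8.79 FPKM. There Hoxc6 was at 24.26 to 27.48 FPKM and Hoxb8 at 7.23 to 11.26 FPKM, and Gm14396 is not given here. The part of the upstream level in these changes was not tested.

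The ATAC-seq libraries gave peaks at some Hox promoters, taken here as 300 bases on either side of a GENCODE start (mm9). Only 1 start per gene was used, that of the transcript with the longest coding sequence. The count of the 38 promoters with a peak was 19, 19 and 18 in the WT libraries of the Chaserr-/- set and 16, 22 and 25 in Chaserr-/-, and 15, 3 and 17 in the WT libraries of the double-mutant set and 4, 15 and 18 in the double mutants. The number of peaks called per library was 66967, 70516 and 58324 and then 62610, 91121 and 93597 in the first set, and 65345, 18661 and 65665 and then 28349, 80703 and 81986 in the second. Over all 22232 protein-coding genes, 31.2 to 58.1% of promoters had a peak in these libraries. The lowest counts, 3 and 4, were in the libraries with fewest peaks, WT replicate 2 and replicate 1 of the double mutants. The highest counts, 22 and 25, were in the libraries with most peaks. Between these extremes the order was looser, with 15 promoters at 80703 peaks and 18 at 58324. WT and mutant counts overlapped in both sets. Where 50% of the window had to be covered they were 5, 6 and 6 in WT and 9, 10 and 13 in Chaserr-/-, without overlap. In the double-mutant set they overlapped. The share of all promoters at this cover is not given here, so these counts cannot be read as particular to Hox promoters. The part of the number of peaks in these counts was not tested. Hoxa3 and Hoxb9 had a peak in 12 of 12 libraries (fold enrichment 5.83 to 10.68 and 3.49 to 8.91, as the peak caller gave it), Hoxa5, whose promoter is printed above, and Hoxd1 and Hoxd9 in 11. Hoxa2, Hoxa6, Hoxa9, Hoxb3, Hoxb4, Hoxb5, Hoxb8, Hoxc5, Hoxd3 and Hoxd12 had none in this window in any library. Hoxb1, hardly expressed in mEFs, had a peak in 1. At these starts peak and RNA did not go together in every gene. Hoxd1 was below the filter in all mEF sets and had peaks, whereas Hoxb8 was among the higher members and had none. A peak at another start of a gene would be missed. With 1000 bases on either side the count in replicate 2 of the double mutants went from 15 to 26. Over all promoters the share there went from 53.8 to 58.3%.

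Neuro2a cells, unlike the adult brains, expressed a stretch of 1 cluster. In the input RNA HoxC summed to 32.5 and 42.1 FPKM, whereas HoxA summed to 0.24 and 0.34, HoxB to 0.15 and 0.08 and HoxD to 0.13 and 0.05 FPKM. Hoxc9, a thoracic gene, was highest at 12.67 and 14.61 FPKM and Hoxc6 was at 9.80 and 14.52 FPKM, which overlapped. Hoxc10 was at 8.51 and 7.90 FPKM, Hoxc5 at 0.34 and 1.74, Hoxc4 at 0.83 and 2.31 and Hoxc8 at 0.33 and 0.98 FPKM. These were the 6 genes that passed the low-count filter, and the other 32 members did not. The noradrenergic neuroblast gene Phox2a stood at 256.3 and 214.6 FPKM in the same libraries.

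In RNA recovered with the CHD2 antibody, Hoxc5, Hoxc6 and Hoxc8 lay well above input and IgG, Hoxc4 lay above them by less, and Hoxc8 passed the test against both. Of the 6 members that passed the filter, 5 were wholly above input (44% of all genes) and 6 wholly above IgG (34.8%). Of the 6, 1 was called against input (15.1% of 14906 genes were, 8.91% higher and 6.16% lower) and 3 against IgG (11.5%, 11.1% higher and 0.376% lower) by edgeR's quasi-likelihood test. DESeq2 called 1 and 3 of 22 (3436 and 3418 of 18163 genes). The labels tie each input to the RIP of the same number, and with the replicate number as a block 3 of the 6 were called against input (Hoxc5, Hoxc6 and Hoxc8) and 4 against IgG (those and Hoxc4). Over all 14906 genes the block gave 4201 calls against input and 3757 against IgG, in place of 2246 and 1707. Hoxc8 was at 5.54 and 7.29 FPKM with CHD2, 0.22 and 0.48 FPKM with IgG and 0.33 and 0.98 FPKM in input, a log2 fold change of 3.38 ± 0.63 (SE; adjusted p = 0.0142) against input and 4.41 ± 0.67 (adjusted p = 0.00812) against IgG. Hoxc6 was at 52.83 and 85.83 FPKM with CHD2, 0.63 and 8.04 FPKM with IgG and 9.80 and 14.52 FPKM in input. Its change was 2.60 ± 0.84 against input (adjusted p = 0.0683) and 4.26 ± 0.92 against IgG (adjusted p = 0.0219), the latter being 3.34 without IgG replicate 1 and 6.73 without IgG replicate 2.

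Hoxc4 was at 2.57 and 6.18 FPKM with CHD2 and at 0.83 and 0.92 FPKM with IgG (2.53 ± 0.69, adjusted p = 0.0494, edgeR's quasi-likelihood test). Against input, at 0.83 and 2.31 FPKM, its change was 1.59 ± 0.66 (adjusted p = 0.129), and its lower CHD2 library was only just above the higher input library. Hoxc5 was at 7.10 and 12.71 FPKM with CHD2 and at 0 and 1.06 FPKM with IgG (4.55, adjusted p = 0.0572), and its change against input was 3.37 ± 1.21 (adjusted p = 0.0913). The 2 genes at the other end lay closer to input or below it. Hoxc9 was at 16.05 and 19.77 FPKM with CHD2, close to input (0.47, adjusted p = 0.732), and at 0.36 and 7.39 FPKM with IgG, a change of 2.46 ± 0.96 (adjusted p = 0.115) that was near that of Hoxc4. Hoxc10 was at 3.48 and 3.68 FPKM with CHD2, 1.66 and 3.06 FPKM with IgG and below input (-1.13 ± 0.43, adjusted p = 0.106). Both comparisons use the same CHD2 libraries. With either CHD2 library left out no gene of the whole table was called against input or IgG, and likewise against input without input replicate 1. With either IgG library left out, 5 of 6 were called against IgG, and 5 (without IgG replicate 1) or 4 (without replicate 2) against input, the 6 libraries sharing 1 estimate of the spread. The calls over all genes were 1749 of 15240 (without IgG replicate 1) and 6468 of 15573 (without replicate 2) against IgG, and 5090 and 4551 against input. The 11 neuroblastoma genes summed to 425.3 and 424.7 FPKM with CHD2, 789.3 and 810.8 FPKM in input and 213.2 and 411.1 FPKM with IgG. Against input 5 of them were positive and 6 negative, and none was called.

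**Figure D5:**
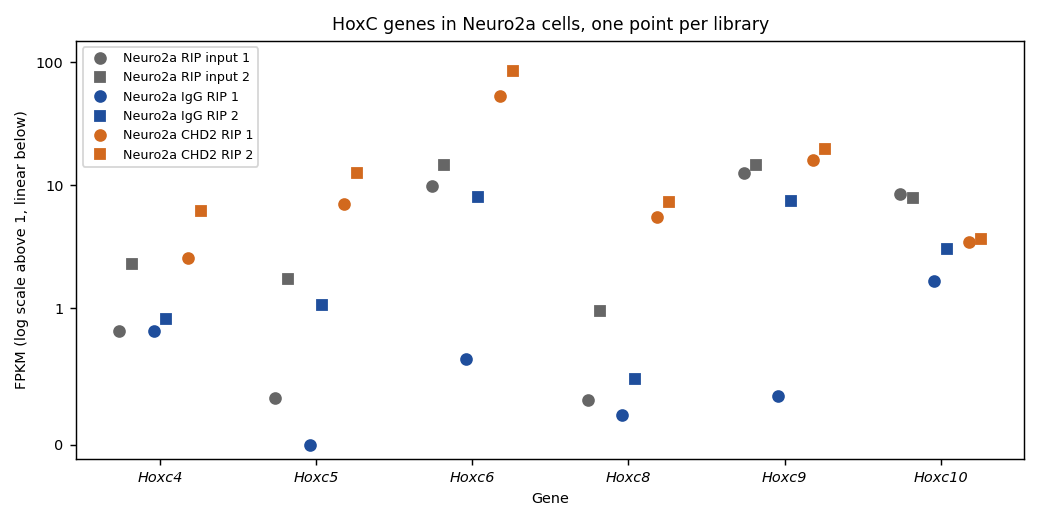
FPKM of Hoxc4, Hoxc5, Hoxc6, Hoxc8, Hoxc9 and Hoxc10 in each of 2 CHD2 RIP, 2 IgG RIP and 2 input libraries of Neuro2a cells, on an axis that is linear below 1 FPKM and logarithmic above. Hoxc4, Hoxc5, Hoxc6 and Hoxc8 lie highest with CHD2, Hoxc9 is near its input level and Hoxc10 is below it.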

How the data were processed

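RNA was sequenced with strand-specific kits, TruSeq for the embryos and for replicate 3 of each brain group, SENSE for the other brains and all mEFs, and RiboCop with SENSE for Neuro2a. The authors counted fragments with RSEM on RefSeq transcripts and deposited expected counts, TPM and FPKM per gene, where FPKM is relative to the library's mapped fragments and the transcript length. ATAC-seq peaks were called per library with MACS2 after Bowtie2 alignment to mm9, and the deposited peak lists give a score, a fold enrichment (ratio over background) and −log10 q. Versions are not given in the sources used here. The 4C data were not used.

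The deposited expected counts were rounded, filtered with filterByExpr, scaled with TMM and fitted with edgeR's quasi-likelihood test (edgeR 4.0.16, R 4.3.3) within each set, with Benjamini-Hochberg adjustment over all genes tested and a threshold of 0.05. DESeq2 1.42.0 was an alternative, as were scalings, filters, left-out libraries, a replicate block, TPM, other FPKM thresholds (main value 1) and other promoter windows. The steps were tested on simulated data. No pair of replicates agreed within sampling noise (lowest mean chi-square per gene 3.59). Same-numbered brains paired, their deviations from the group means correlating at 0.437, 0.529 and 0.747, and replicate 3 shares a kit. The labels give each RIP input the number of its RIP, and those pairs correlated at 0.159 (CHD2 and input) and 0.174 (CHD2 and IgG). Peaks and coordinates other than the printed promoters are mm9. Levels are FPKM, and fold changes come from counts.

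The members, the gene lists and the tests were chosen with earlier results of these data known. Named were members called (up to 6 by size of change), otherwise the 3 with the lowest unadjusted p, the highest member of each cluster in each WT group, and members at 1 FPKM or more in brains or Neuro2a. Other members and markers named, Hoxb1 and the genes at 0 at E9.5 among them, were chosen after their values were seen. One further Hox row of the tables (1 row) is not reported here.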

Additional observations from a re-analysis of the deposited data

How the results depend on the processing

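The median log2 fold change of the Hox genes, near 0 in several comparisons, changed its sign at E9.5 without Chaserr+/- replicate 1 (from -0.22 to 0.02), in Chd2m/m mEFs with DESeq2 and without the filter (from -0.01 to 0.03 in both), and in double mutants without WT replicate 1 (from 0.05 to -0.02). The limits are the low number of libraries, the E9.5 and brain libraries that stood apart, and the tail-end genes with 0 to 3 counts over the E9.5 WT libraries, for which only bounds or ratios with wide intervals could be given.

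The count of Hox genes called changed as follows. In Chaserr-/- mEFs it went from 0 to 1 (Hoxb5) with DESeq2, to 1 without the low-count filter and to 1 with at least 10 counts in every library, while calls over all genes went from 16 of 13580 to 2590 of 18671, 1407 of 18671 and 1383 of 12673. In the double mutants it went to 1 (Hoxb8) with DESeq2 and to 1 without the filter, and over all genes from 13 of 14076 to 220 and 103 of 19227. Between the stages it went from 30 of 37 to 26 of 38 with DESeq2 (12579 of 19868 genes called). It was 14 of 21 with at least 10 counts in every library, fewer members being tested. Among the WT mEF sets DESeq2 called 16 of 38. Against RIP input 4 of 22 were called without the filter (3003 of 18163 genes), and against IgG 1 of 6 with library size alone (807 of 14906) and 5 of 22 without the filter (2563 of 18163). With FPKM of at least 2, 3 members were detected in Neuro2a input. The mean number of Hox promoters with a peak was 18.7 in double mutants with 1000 bases on either side and 8 at −log10 q of at least 5, 12.3 in the WT of the Chaserr-/- set at that q, and, where 50% of the window had to be covered, 4 and 3.67 in the double-mutant set (WT, mutant) and 5.67 and 10.7 in the Chaserr-/- set. With 1000 bases, 42.8, 58.3 and 59.6% of all promoters had a peak in the double-mutant libraries. Shares over all promoters at that q and that cover are not given here. Chd2 at E9.5 passed the threshold with DESeq2 (0.66) and without the filter (0.66), and Chaserr at E9.5 with DESeq2 (-0.86). The cause of these differences was not tested.

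With 1 library left out, the calls ranged from 0 to 3 in Chaserr-/- mEFs, 0 to 3 in double mutants, 27 to 33 between stages, 29 to 31 among mEF sets, 0 to 5 against input and 0 to 5 against IgG. Detected members in Neuro2a input ranged from 3 to 5, and mean promoters with a peak from 9 to 16, 9.5 to 16.5, 18.5 to 19 and 19 to 23.5 (double-mutant set WT and mutant, Chaserr-/- set WT and mutant). Chd2 log2 fold changes ranged over 0.60 to 0.71 at E9.5, 0.76 to 0.82 at E13.5, 0.51 to 0.60, 1.40 to 1.53 and 0.61 to 0.73 in Chaserr+/-, Chaserr-/- and Chd2m/m mEFs, and the fitted value of Chaserr, at 0 in Chaserr-/- and no bound, over -8.92 to -8.55. Where this left 1 sample in a group (Chd2m/m, RIP), that sample was assumed to vary like the other groups.

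In the embryos and mEFs the replicate numbers paired no samples (correlations of -0.286 to 0.354). With the numbers as a replicate block, 1 Hox gene was called in Chaserr+/- mEFs (Hoxd13, adjusted p = 0.0411, where calls over all genes went from 23 to 74), 1 in Chd2m/m mEFs (Hoxa5, adjusted p = 0.0331, all genes from 2 to 99), 3 against RIP input and 4 against IgG, Chd2 at E13.5 had 0.78 and no longer passed, and no other count of Hox calls moved. In brains no Hox gene passed the filter with or without the block. In the Chaserr-/- set no paired analysis was possible, since the labels number the WT libraries 4 to 6 and the mutants 1 to 3. The same held among the 4 WT mEF sets, which come from different pregnancies. Library size alone moved the median over all genes between stages from 0.0566 to 0.389.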

Other observations

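The regulators and partners of Hox genes were counted in the same fits. None of the 9 TALE cofactors, 18 Polycomb genes, 7 Trithorax genes, 15 genes upstream of the clusters (Cdx, retinoic acid, FGF and WNT genes), 9 matched noncoding RNAs of the clusters and 13 limb and axial position genes was called by edgeR's quasi-likelihood test in any mutant comparison. At an unadjusted p under 0.05 the most were 11 Polycomb genes in Chaserr-/- mEFs, where 33.9% of all genes were, and 5 of 13 limb and axial genes at E13.5, where 6.34% were. Not all listed genes passed the filter and were tested. Of the 15 upstream genes, 8 were tested in brains and in each mEF comparison. Of the noncoding RNAs, 3 to 6 were tested in the mEF comparisons and 0 in brains. In brains 9 of the 13 limb and axial genes were tested. DESeq2 was not counted for these lists.

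Between E9.5 and E13.5 in WT embryos, 2 TALE cofactors were called higher and 4 lower, 4 Polycomb genes higher and 8 lower, 0 Trithorax genes higher and 7 lower, 3 upstream genes higher and 7 lower, and 8 limb and axial genes higher and 4 lower, where 42.1% of all genes were higher and 38.3% lower. Ezh2, the catalytic Polycomb subunit, had a log2 fold change of -1.09 ± 0.04 (SE), and Cdx1, an activator of Hox genes in the early trunk, -5.52. The noncoding RNAs of the clusters split by position. Hotair and Hottip, which lie at the high-numbered ends, and Hoxa11os were called higher at E13.5, and Halr1, Hoxaas2, Hotairm1 and Hoxb5os lower.

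In Neuro2a, 2 TALE cofactors were called higher and 1 lower with the CHD2 antibody than in input, 2 Polycomb genes higher, 1 Trithorax gene higher and 3 lower, and 2 upstream genes higher, where 8.91% of all genes were higher and 6.16% lower. Against IgG, 1 TALE cofactor, 6 of 18 Polycomb genes, 3 of 7 Trithorax genes and 2 upstream genes were called higher and none lower, where 11.1% of all genes were higher and 0.376% lower. Hotairm1, a noncoding RNA at the low-numbered end of HoxA, was at 2.24, 0.57 and 0.64 FPKM in WT brains and 4.73, 3.68 and 0 FPKM in Chaserr+/- brains, highest in the libraries that held Hoxa5. Chaserr RNA in WT mEFs was at 34.6 to 41.8 CPM in the double-mutant set and 4.03 to 9.80 CPM in the other 3 sets.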
